A study of Mus musculus with 24 samples.

Results

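The transcripts described here are those of 7 genes known for their part in regulatory T cells: Foxp3, Ikzf2, Ikzf4, Entpd1, Nt5e, Lrrc32 and Gpr83. They were chosen by name, with earlier results of these data known. They are 7 of the 22009 named genes in the deposited table of RPKM (read counts scaled to the length of the transcript and to the mapped reads of the library). All 7 were detected in each of the 24 libraries.

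Regulatory T cells are CD4+ T cells that restrain other immune cells and keep tolerance to self. Most arise in the thymus and some are induced in the periphery, and both kinds depend on the transcription factor Foxp3. Helios (Ikzf2) and Eos (Ikzf4) are zinc finger proteins of the Ikaros family that act with Foxp3, CD39 (Entpd1) and CD73 (Nt5e) are surface enzymes that turn extracellular ATP into adenosine in consecutive steps, GARP (Lrrc32) holds latent TGF-β at the surface, and Gpr83 is a G protein-coupled receptor. Several of these genes are not restricted to regulatory T cells: CD39 and CD73 are also found on other lymphocytes and myeloid cells, and GARP on platelets.

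RNA sequencing was carried out on CD4+ T cells of WT C57BL/6 adult mice, purified from pooled spleen by negative selection. Resting cells gave 2 libraries. Cells activated with plate-bound anti-CD3 and soluble anti-CD28 gave 1 library at each of 4, 8, 12, 16, 20 and 24 h in each of 3 cultures: Th0 with nothing more added, Th1 with anti-IL-4 and IL-12, and Th2 with IL-4 and antibodies to IFN-γ and IL-12. Actinomycin, a blocker of transcription, was added after 16 h of stimulation for a further 4 libraries, taken 0, 1, 2 and 4 h later, in a skewing condition that the labels do not give. The labels speak of purified CD4+ cells and the methods of naive cells, and the resting libraries carry another tag than the cultures, so that preparation and activation cannot be told apart in any comparison with resting cells.

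As estimated from the RPKM values, the libraries held between 17512385 and 33017133 mapped reads. Cd4 was at 326 and 328 RPKM in the resting libraries and between 111 and 227 RPKM in the 18 cultures, as the label of CD4+ T cells requires. At 24 h, Gata3, the transcription factor of Th2 cells, was at 31.1 RPKM in Th2 against 11.2 in Th0 and 7.21 in Th1, and Tbx21, that of Th1 cells, was at 3.50 RPKM in Th2 against 41.0 in Th0 and 47.0 in Th1. Transcripts of other spleen cells were abundant at rest and fell in culture: summed over 13 monocyte and macrophage markers they were at 691 and 717 RPKM in the resting libraries, between 52.5 and 88.6 RPKM at 4 h and between 14.2 and 25.6 RPKM at 24 h. The sum over 8 red cell markers was at 38854 and 42401 RPKM at rest, between 29395 and 47124 RPKM at 4 h and between 142 and 212 RPKM at 24 h. That over 9 platelet and megakaryocyte markers was at 34.9 and 38.3 RPKM at rest, between 26.9 and 45.0 RPKM at 4 h and between 3.18 and 4.41 RPKM at 24 h. The red cell and platelet sums thus overlapped their resting values at 4 h and were lower at 24 h. These sums share the denominator of every RPKM value given below.

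Levels are compared in RPKM, a scale that allows for transcript length. At rest Foxp3 was the most abundant of the 7 genes, with 23.2 and 22.2 RPKM in the 2 resting libraries, followed by Nt5e with 17.4 and 17.0 RPKM. Entpd1 (13.8 and 13.9 RPKM) and Ikzf2 (12.7 and 13.8 RPKM) were next to each other in this order and differed by less than the spread of the Ikzf2 values. Lrrc32 was at 6.60 and 7.40 RPKM, Gpr83 at 4.85 and 5.66 RPKM and Ikzf4 at 4.58 and 5.28 RPKM, with overlapping values for the last pair. Over the 18 cultures the order was different: Foxp3 stayed first with a mean of 25.0 RPKM (SD 7.82), while Entpd1 was last with a mean of 2.74 RPKM (SD 1.27). The means of Gpr83 and Ikzf4, at 12.1 RPKM (SD 3.54) and 12.0 RPKM (SD 3.85), did not differ beyond their spread.

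**Figure D1:**
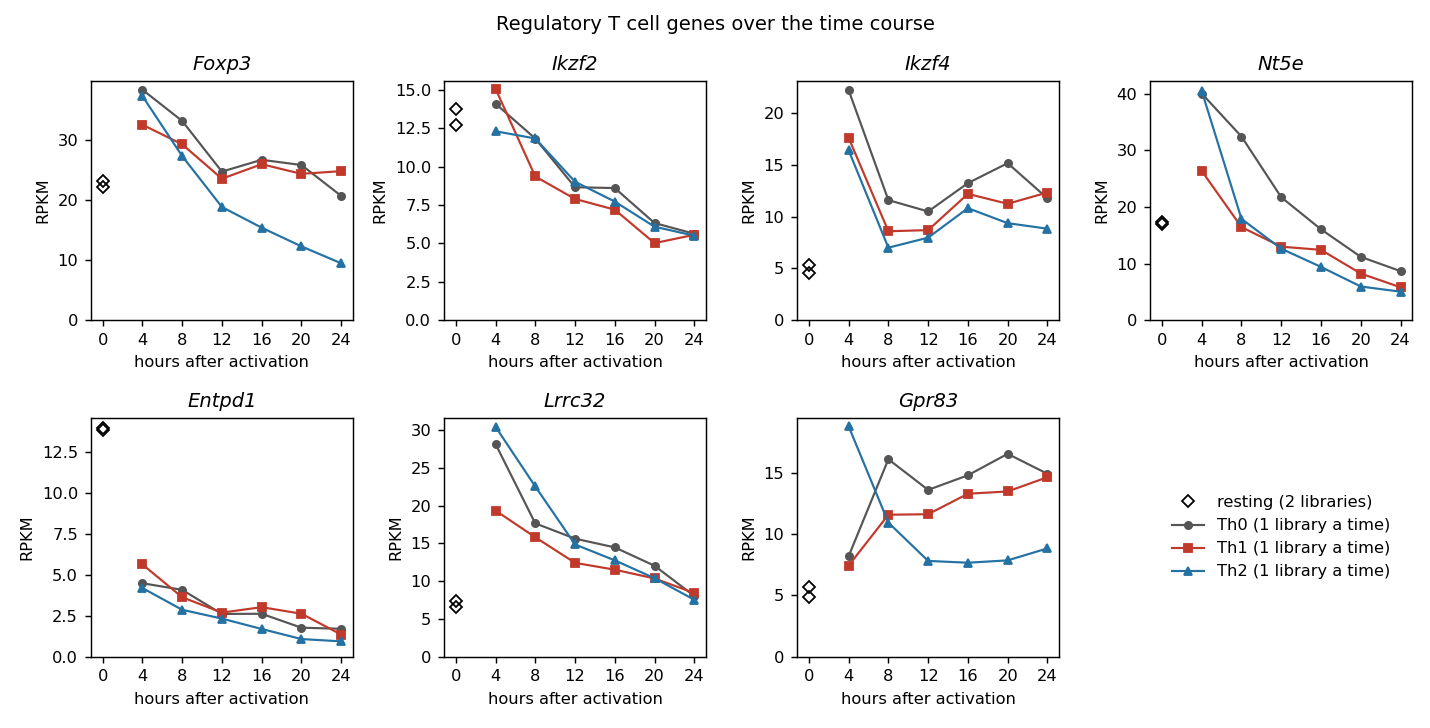
RPKM of each gene (vertical axis, from 0) against hours after activation (horizontal axis), with open diamonds for the 2 resting libraries and lines for the Th0, Th1 and Th2 cultures, each point being 1 library. Foxp3 separates in Th2 from 12 h on and ends at 9.47 RPKM, Entpd1 is far below its resting level of 13.8 and 13.9 RPKM in every culture, and Gpr83 in Th2 at 4 h stands at 18.8 RPKM.

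Foxp3 (ENSMUSG00000039521.13) lies on the plus strand of the X chromosome, at chrX:7573644-7595245 of GRCm38, and encodes the forkhead factor that defines the lineage. The 250 bases before 1 of its annotated start sites are shown because Foxp3 was the only one of the 7 genes whose slope over time differed between cultures past the threshold given below. The start site shown is the one whose window held matches to the letters marked below. It lies downstream of the other start site, within the span of the gene given above. They come from RefSeq (GRCm38.p6, plus strand, chrX:7580233-7580482) and end just before the start site at 7580483. Capitals mark matches on either strand to TTCNNNGAA, a spacing that STAT factors read, and to AGATAA, a core that GATA factors read.
Foxp3 promoter: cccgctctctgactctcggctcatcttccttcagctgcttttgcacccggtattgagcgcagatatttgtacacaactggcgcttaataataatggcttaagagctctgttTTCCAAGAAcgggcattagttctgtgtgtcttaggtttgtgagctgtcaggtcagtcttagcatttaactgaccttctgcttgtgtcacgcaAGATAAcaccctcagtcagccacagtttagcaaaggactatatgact
The stretch held 1 match to the STAT letters, 139 bases before the start site, and 1 to the GATA letters, 47 bases before it. Of 32851 windows of this kind over all genes (250 bases before to 50 after a start site), 8.3% held the first and 11.2% the second. The window of the other Foxp3 start site, at 7579676, and the 4 windows of Entpd1, Nt5e and Gpr83 held neither. A match of letters is a description and not a site of binding.

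In Th0, Foxp3 was at 38.4, 33.2, 24.7, 26.7, 25.8 and 20.7 RPKM from 4 to 24 h. In Th1 it was at 32.6, 29.3, 23.6, 26.0, 24.4 and 24.8 RPKM. In Th2 it was at 37.3, 27.3, 18.8, 15.4, 12.3 and 9.47 RPKM. All 3 cultures were above both resting libraries at 4 h, and only Th2 was far below them at 24 h. On the log2 scale the change from rest to 4 h was 0.66 (SE 0.34, limma adjusted p = 0.156), which did not pass the threshold of an adjusted p under 0.05 and a 2-fold change used throughout for time points and cultures. From 4 to 24 h Foxp3 fell by 1.06 (SE 0.31, limma adjusted p = 0.00587), but by 0.63 without the Th2 cultures, which is less than 2-fold. Against rest, its log2 change at 24 h was -0.40 (limma adjusted p = 0.308), and 0.00 without the Th2 cultures. In bulk RNA, fewer Foxp3+ cells and less Foxp3 RNA per cell cannot be told apart.

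Ikzf2 (Helios; minus strand, chr1:69531214-69687245) was at 14.1 RPKM in Th0, 15.1 in Th1 and 12.3 in Th2 at 4 h, which lay around the resting values. By 24 h it was at 5.63, 5.56 and 5.50 RPKM, well below both resting libraries and nearly the same in the 3 cultures. The reads behind these last values numbered 1422 in Th0 and 1326 in Th2, which gives exact Poisson 95% intervals of 5.34 to 5.93 and 5.21 to 5.81 RPKM (counting error only). It fell by 1.18 (log2, SE 0.13) between rest and 24 h, with a limma adjusted p of 1.41e-06. The fall was gradual, with log2 changes of -0.26 at 8 h, -0.61 at 12 h, -0.72 at 16 h and -1.13 at 20 h, the last of which also passed the threshold.

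Ikzf4 (Eos; minus strand, chr10:128630843-128645991) went the other way from its family member. At 4 h it was at 22.2 RPKM in Th0, 17.6 in Th1 and 16.4 in Th2, which was 4.51, 3.57 and 3.33 times the resting mean. It rose by 1.82 (log2, SE 0.22, limma adjusted p = 1.06e-05), with no overlap between cultures and resting libraries. At 8 h it was down to 11.6, 8.58 and 6.99 RPKM, and at 24 h it stood at 11.8, 12.3 and 8.83 RPKM, where the log2 change against rest was 1.07 (SE 0.22, limma adjusted p = 0.000434). At 8 and 12 h its log2 changes of 0.79 and 0.81 were below 2-fold, so that it was called at 4, 16, 20 and 24 h and not at 8 or 12 h.

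Entpd1 (CD39; plus strand, chr19:40612366-40741602) showed the largest change of the 7 genes at 24 h. At 4 h it was at 4.49 RPKM in Th0, 5.64 in Th1 and 4.20 in Th2, and at 24 h at 1.71, 1.36 and 0.941 RPKM, all far below the resting values. The resting mean was 8.12, 10.2 and 14.7 times the 24 h value in Th0, Th1 and Th2. Entpd1 fell by 1.46 (log2, SE 0.26, limma adjusted p = 0.000389) by 4 h and by 2.99 (SE 0.26, limma adjusted p = 6.03e-08) by 24 h. The monocyte and macrophage sum went down over the same interval, from 691 and 717 RPKM to between 52.5 and 88.6 RPKM at 4 h, with 10 of 11 tested markers called lower. The part of these cells in the Entpd1 result was not tested. From 4 to 24 h, when the resting libraries do not enter, Entpd1 fell by a further 1.53 (SE 0.23, limma adjusted p = 2.61e-05), and 9 of these 11 markers also fell.

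Nt5e (CD73; plus strand, chr9:88327197-88372092), the second enzyme of the pair, was higher at 4 h and then lower. It was at 40.0, 32.4, 21.7, 16.0, 11.2 and 8.65 RPKM in Th0 from 4 to 24 h. In Th1 it was at 26.4, 16.4, 13.0, 12.4, 8.23 and 5.80 RPKM. In Th2 it was at 40.5, 17.9, 12.6, 9.40, 5.93 and 5.02 RPKM. Each series ran downward without exception, from above both resting libraries to below both. At 4 h the log2 change against rest was 1.00 (SE 0.33, limma adjusted p = 0.0287), just past the 2-fold limit, and this call was kept under 8 of 15 alternative settings. From 4 to 24 h Nt5e fell by 2.38 (SE 0.30, limma adjusted p = 4.56e-06), and against rest it had fallen by 1.38 (SE 0.33) at 24 h with a limma adjusted p of 0.00172.

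Lrrc32 (GARP; plus strand, chr7:98489283-98502181) had a peak at 4 h of 28.2 RPKM in Th0, 19.4 in Th1 and 30.4 in Th2. These values were 4.02, 2.76 and 4.35 times the resting mean, and none overlapped the resting libraries. By 24 h it was at 8.05, 8.44 and 7.55 RPKM, close above the higher resting library. Lrrc32 rose by 1.80 (log2, SE 0.18, limma adjusted p = 1.5e-06) by 4 h, fell by 1.61 (SE 0.16, limma adjusted p = 4.84e-07) from 4 to 24 h, and at 24 h differed from rest by 0.18 (SE 0.18, limma adjusted p = 0.381). The platelet sum, which could carry GARP transcripts, was at 34.9 and 38.3 RPKM at rest and between 26.9 and 45.0 RPKM at 4 h, so that it overlapped between the 2 groups. The part of platelets in the Lrrc32 result was not tested.

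Gpr83 (plus strand, chr9:14860210-14870789) was in Th0 at 8.19 RPKM at 4 h and between 13.6 and 16.5 RPKM from 8 h on. In Th1 it was at 7.43 RPKM at 4 h and between 11.6 and 14.6 RPKM afterwards. In Th2 it was at 18.8 RPKM at 4 h, at 10.9 RPKM at 8 h and between 7.66 and 8.83 RPKM from 12 h on. All cultures were above both resting libraries at every time. The log2 change against rest was 0.94 (SE 0.39, limma adjusted p = 0.0743) at 4 h and 1.17 (SE 0.39, limma adjusted p = 0.0135) at 24 h, where it passed the threshold.

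**Figure D2:**
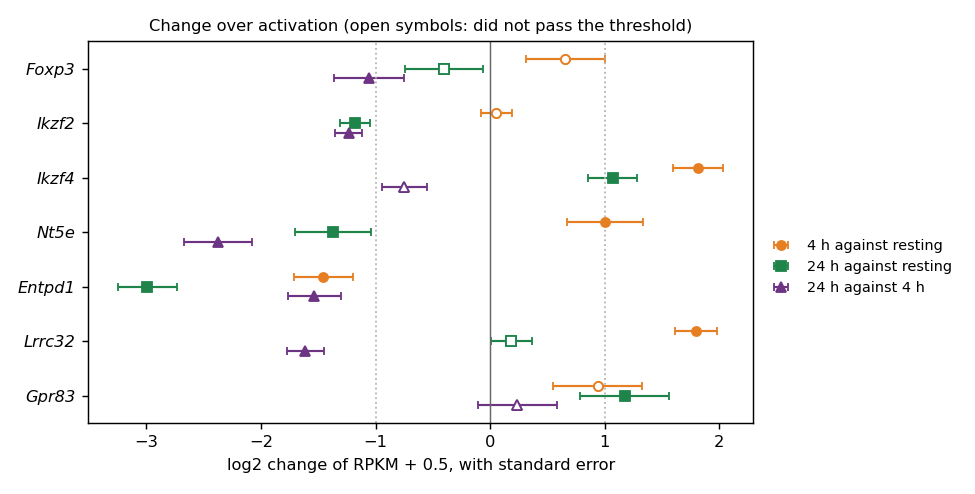
Log2 change of RPKM + 0.5 (horizontal axis) for each gene (vertical axis) at 4 h against rest, 24 h against rest and 24 h against 4 h, with standard errors from limma; dotted lines mark 2-fold and open symbols did not pass the threshold. Ikzf4 and Lrrc32 lie near 1.8 at 4 h, and Entpd1 lies at -2.99 at 24 h.

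Counted over the 7 genes, 4 were called at 4 h against rest, 3 of them higher (Ikzf4, Nt5e and Lrrc32) and Entpd1 lower. Of all 10897 genes tested, 10.6% were called in this comparison, 2.61% higher and 7.97% lower. At 24 h against rest 5 of the 7 were called (Ikzf4 and Gpr83 higher; Ikzf2, Nt5e and Entpd1 lower), where 30.1% of all genes were (12.7% higher and 17.4% lower), and from 4 to 24 h 5 of the 7 were called, all lower (Foxp3, Ikzf2, Nt5e, Entpd1 and Lrrc32), where 26.2% of all genes were called and 13.2% were called lower. The median log2 change from 4 to 24 h was -1.24 over the 7 genes and -0.01 over all genes. At 8, 12, 16 and 20 h against rest, 3, 1, 3 and 5 of the 7 were called, where the shares of all genes were 18.9%, 27.1%, 25.7% and 29.0%. The genes did not follow 1 course: Pearson's r of log2(RPKM + 0.5) over the 20 libraries of the time course, which share their denominators, was 0.86 for Ikzf2 and Nt5e, 0.81 for Foxp3 and Nt5e, -0.04 for Ikzf2 and Ikzf4 and -0.45 for Entpd1 and Gpr83.

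Cultures were compared at matched times, which sets 3 series from 1 pool of cells against each other and not biological replicates. None of the 7 genes reached both an adjusted p under 0.05 and a 2-fold difference with limma in any pair of cultures, where 2.01% of 10737 genes did between Th2 and Th0, 1.96% between Th2 and Th1 and 0.494% between Th1 and Th0. At an unadjusted p under 0.05, 4, 4 and 3 of the 7 genes differed in these pairs, where 41.2%, 25.3% and 16.4% of all genes did. At an adjusted p under 0.05 with no limit on size, 4 of the 7 were lower in Th2 than in Th0, where 29.6% of all genes differed: Nt5e (log2 difference -0.65, adjusted p = 0.000977), Foxp3 (-0.60, adjusted p = 0.00792), Ikzf4 (-0.47, adjusted p = 0.000456) and Entpd1 (-0.39, adjusted p = 0.0207). Foxp3 (-0.54, adjusted p = 0.0236) and Entpd1 (-0.48, adjusted p = 0.0103) were also lower in Th2 than in Th1, where 12.2% of all genes differed. Nt5e was lower in Th1 than in Th0 (-0.60, adjusted p = 0.0119), where 2.27% of all genes differed, and the 2 libraries differed beyond counting error at 6 of 6 times. Lrrc32 in this pair was also lower beyond counting error at 5 times (limma adjusted p = 0.224). Ikzf2 was lower beyond it at 4 times and higher at 1 (limma adjusted p = 0.362). Over the alternative settings the adjusted p reached 0.105 for Foxp3 and 0.0643 for Entpd1 between Th2 and Th1, 0.0724 for Entpd1 between Th2 and Th0 and 0.0957 for Nt5e between Th1 and Th0, and it was at most 0.0356 for Foxp3, Nt5e and Ikzf4 between Th2 and Th0.

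The difference in Foxp3 between Th2 and the other cultures grew with time. The ratio of Th2 to Th0 was 0.973, 0.824, 0.762, 0.577, 0.475 and 0.457 from 4 to 24 h. The ratio of Th2 to Th1 was 1.15, 0.933, 0.800, 0.593, 0.504 and 0.381. Both ratios became smaller at each step. Tested as an interaction of culture with hours, the log2 slope of Foxp3 in Th2 was below that in Th0 by 0.057 per h (difference -0.0567, SE 0.0085, limma adjusted p = 0.00365) and below that in Th1 by more (difference -0.0765, SE 0.0085, limma adjusted p = 0.000533). Between Th1 and Th0 the slopes differed by 0.020 per h (limma adjusted p = 0.496), and 0.0279% of genes passed. Foxp3 was the only one of the 7 genes past an adjusted p of 0.05 for either slope difference, where 5.15% of 10737 genes passed for Th2 against Th0 and 1.09% for Th2 against Th1. The call against Th1 was kept under 16 of 16 alternative settings and that against Th0 under 15, the exception being the fit with only these 2 series (adjusted p = 0.0525).

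Other transcripts differed along with Foxp3. At 24 h the sum of 10 CD4 T cell markers was 1842 RPKM in Th2 against 2094 in Th0 and 2153 in Th1. In the same order, the sum of 10 B cell markers was 30.8 RPKM against 21.1 and 13.8, and that of 6 NK cell markers 27.0 RPKM against 39.2 and 44.1. The monocyte and macrophage sum was 14.2 RPKM against 22.1 and 25.6, and the endothelial sum 9.01 RPKM against 24.5 and 18.1. The CD8 T cell, dendritic cell, neutrophil, platelet and red cell sums were higher in Th2 than in both other cultures, and the plasma cell sum lay between them. The part of these cells in the Foxp3 and Entpd1 differences was not tested. Foxp3 overlaps Ccdc22 over 1437 bases, Ppp1r3f over 640 bases and Gm36995 over 21602 bases on the opposite strand, and Flicr over 7384 bases on its own strand. Gm36995 and Flicr had no entry among the named genes and could not be analysed. The strand setting of the counting is not given in the sources used here, so that reads from the overlaps cannot be told apart. The slope of Ccdc22 in Th2 minus that in Th1 was -0.02 (limma adjusted p = 0.391), and that of Ppp1r3f was -0.02 (limma adjusted p = 0.395). From 4 to 24 h Ppp1r3f fell by 1.04 (limma adjusted p = 0.00283), as Foxp3 did, whereas Ccdc22 differed by 0.06 (limma adjusted p = 0.728). Ppp1r3f was also lower in Th2 than in Th0 (log2 difference -0.56, limma adjusted p = 0.00313). Between Th2 and Th1 its log2 difference was -0.03 (limma adjusted p = 0.896), and between Th1 and Th0 -0.53 (limma adjusted p = 0.0279). The slope of Ppp1r3f in Th2 minus that in Th0 was 0.03 per h (limma adjusted p = 0.161), of the other sign than that of Foxp3.

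**Figure D3:**
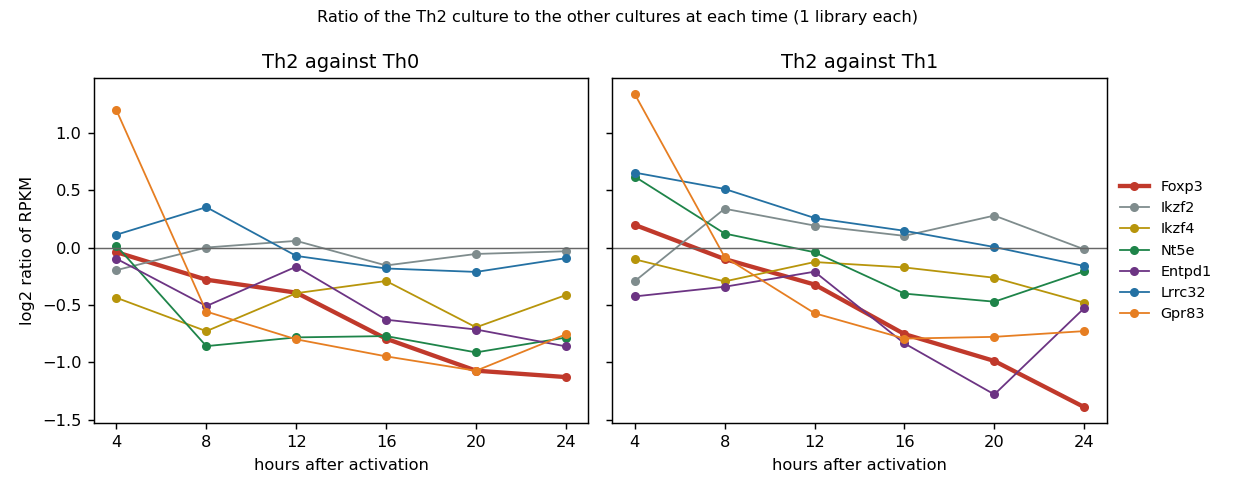
Log2 ratio of RPKM in the Th2 culture to that in Th0 (left) and Th1 (right) at each time (horizontal axis, hours), 1 library each, with 1 line a gene and Foxp3 drawn thick. The Foxp3 line goes from ratios of 0.973 and 1.15 at 4 h down to a ratio of 0.457 against Th0 and 0.381 against Th1, and the Gpr83 line starts above 0 at 4 h and lies below it from 8 h on.

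For the other 6 genes the change of the culture difference over time did not pass the test. Gpr83 had slope differences as large as those of Foxp3, -0.08 per h against Th0 (SE 0.02, limma adjusted p = 0.0615) and -0.09 per h against Th1 (SE 0.02, limma adjusted p = 0.0889), but these were -0.0160 and -0.0359 without the 4 h libraries. Without the 8 h libraries both passed (limma adjusted p = 0.0449 and 0.0385). In Th2 it was 2.29 times the Th0 value and 2.53 times the Th1 value at 4 h, and from 8 h on it was below both. Lrrc32 was 1.57 times as high in Th2 as in Th1 at 4 h and 0.894 times at 24 h (slope difference -0.04 per h, limma adjusted p = 0.0743, and 0.0377 at the lowest over the alternative settings, of which 2 of 16 passed). Ikzf2 lay between 0.816 and 1.26 times its Th1 value in Th2 at all times. Ikzf4 and Entpd1 were below both other cultures in Th2 at 6 of 6 times.

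In the actinomycin series a level is still a share of all mapped reads, so a positive slope says that this share rose and not that the transcript was made. Whether the transcript was lost more slowly than the average one was not tested. The start library lay within the range of the 16 h cultures for Nt5e, Lrrc32 and Gpr83 and outside it for the other 4 genes. Ikzf4 was at 10.2, 10.1, 12.1 and 18.3 RPKM after 0, 1, 2 and 4 h, with a log2 slope of 0.22 per h (SE 0.07, limma adjusted p = 0.0117). Nt5e was at 14.5, 12.8, 21.8 and 22.1 RPKM, with a slope of 0.18 per h (SE 0.06, limma adjusted p = 0.0266). For both the late libraries were the higher ones. These 2 of the 7 genes passed, both with a positive slope, where 20.9% of 10571 genes passed and 8.95% had a positive slope. The exact two-sided permutation of the 4 times gave p = 0.0833 for Ikzf4 and p = 0.208 for Nt5e. Both calls were lost when the 0, 1 or 4 h library was left out.

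Entpd1 went from 1.40 to 1.53, 1.76 and 3.12 RPKM with actinomycin, each library above the one before (slope 0.24 per h, limma adjusted p = 0.061), and the exact permutation gave p = 0.0417, the smallest that 4 times allow. Ikzf2 was at 11.4, 6.67, 5.93 and 6.05 RPKM, so that nearly all of its difference lay between 0 and 1 h (slope -0.18 per h, limma adjusted p = 0.0666). Gpr83 was at 10.4, 8.93, 6.49 and 6.76 RPKM (slope -0.15 per h, limma adjusted p = 0.131). Foxp3, at 29.1, 30.9, 24.7 and 26.3 RPKM, had a slope of -0.05 per h (SE 0.06, limma adjusted p = 0.595), and Lrrc32, at 11.6, 10.2, 7.58 and 12.2 RPKM, had a slope of 0.02 per h (limma adjusted p = 0.901). Set among the slopes of all genes, whose median was 0.00, those of Entpd1, Ikzf4 and Nt5e were at the 95.2, 93.7 and 90.8 percentiles and that of Ikzf2 at the 11.2 percentile.

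**Figure D4:**
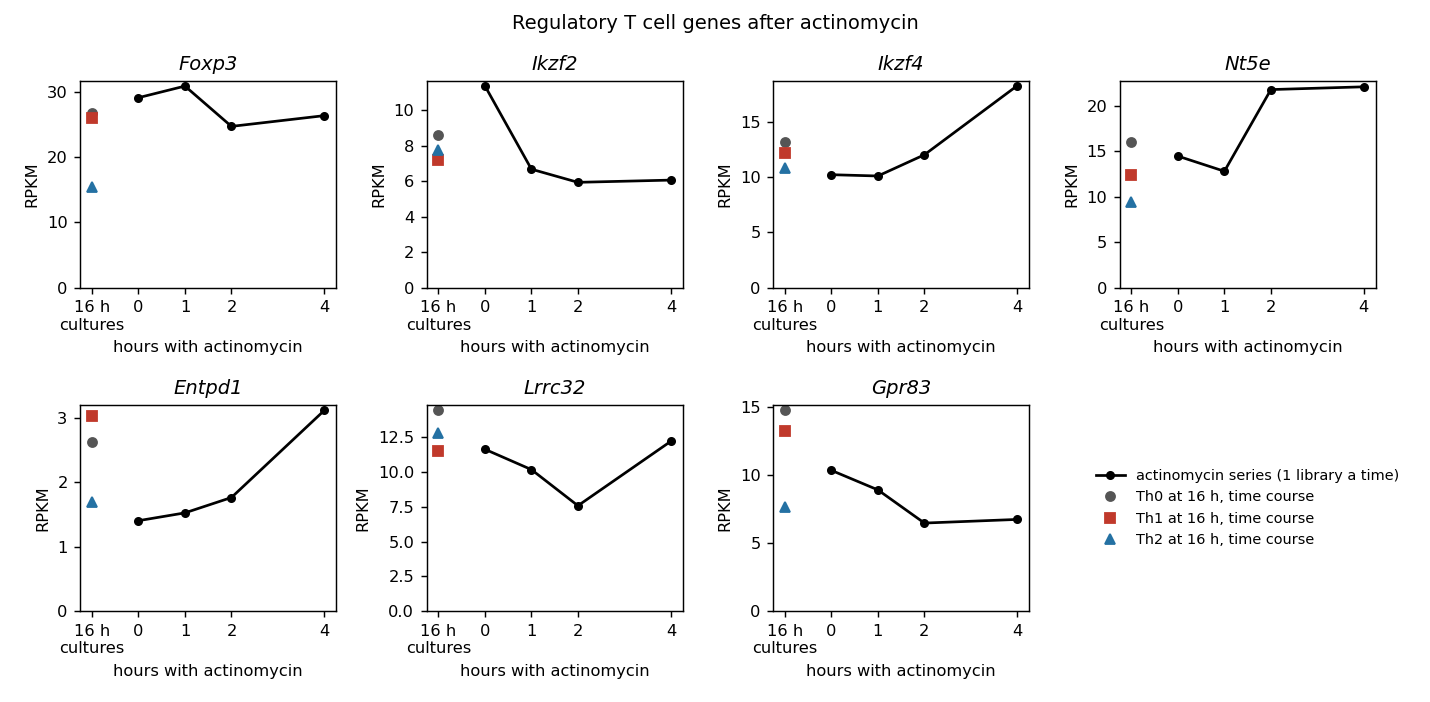
RPKM of each gene (vertical axis, from 0) against hours with actinomycin (horizontal axis; black line, 1 library a time), with the Th0, Th1 and Th2 cultures at 16 h of the time course on the left. Ikzf4, Nt5e and Entpd1 end above their start, at 18.3, 22.1 and 3.12 RPKM, and Ikzf2 is lower from 1 h on.

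Genes that work with these 7 were read from lists, leaving the 7 themselves out. Among 20 tested surface and effector genes of regulatory T cells, 8 were higher and 5 lower at 24 h than at rest, where 12.7% of all genes were higher and 17.4% lower. Il2ra (CD25, the high affinity chain of the IL-2 receptor) rose from 19.6 and 18.1 RPKM at rest to 256 in Th0, 276 in Th1 and 192 in Th2 at 24 h (log2 change 3.63, limma adjusted p = 3.87e-08), and Gzmb (granzyme B) rose by 4.03 (limma adjusted p = 0.000115). Klrg1, an inhibitory receptor, and Fgl2, a secreted suppressive protein, both fell by 2.17 (limma adjusted p = 0.0066 and 0.00102). Ctla4, a checkpoint receptor, had a mean of 59.7 RPKM at rest and of 90.6 RPKM at 24 h (log2 change 0.59, limma adjusted p = 0.0361), which is less than 2-fold. Between Th2 and Th1, Ccr4, a chemokine receptor of Th2 and regulatory T cells, was higher in Th2 by 2.74 (limma adjusted p = 1.57e-12), and Klrg1 and Fgl2 were lower by more than 2-fold, with log2 differences of -1.40 and -1.14. Both were low at 24 h, Klrg1 at 0.343 RPKM in Th0, 1.10 in Th1 and 0.442 in Th2. Fgl2 was at 0.817, 0.983 and 0.361 RPKM in the same order. The part of other cell types in the Klrg1 and Fgl2 differences was not tested. Il2ra and Tnfrsf4 (OX40) passed the adjusted p of 0.05 for a lower slope in Th2 than in Th1, with differences of -0.059 and -0.056 per h (limma adjusted p = 0.0210 and 0.0399), where 1.09% of all genes passed in either direction.

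Among 26 tested regulators of Foxp3, 6 were higher and 5 lower at 24 h than at rest (all genes, 12.7% and 17.4%). Nr4a3, an orphan nuclear receptor induced by TCR signals, rose by 3.71 (limma adjusted p = 1.83e-07), and Stat5a, which carries the IL-2 signal, by 2.38 (limma adjusted p = 0.000143). Foxo3, a forkhead factor, fell by 1.58 (limma adjusted p = 1.39e-08) and Kat2b, an acetyltransferase, by 1.45 (limma adjusted p = 0.0229). In Th2 against Th1, Gata3 was higher by 1.60 (limma adjusted p = 1.24e-06) and Stat5a by 1.00 (limma adjusted p = 1.68e-05), and none of the 26 was called lower, where 1.96% of all genes were called in either direction.

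Of the enzymes, transporters and receptors of the adenosine pathway, 13 were tested beside Entpd1 and Nt5e, and 2 were higher and 1 lower at 24 h than at rest, against the same 12.7% and 17.4% of all genes. The nucleoside transporters Slc29a2 and Slc29a1 rose by 2.37 and 1.18 (limma adjusted p = 3.21e-05 and 0.00657). P2rx7, a receptor for extracellular ATP, fell by 3.82 (limma adjusted p = 2.94e-09), from 20.2 and 22.1 RPKM at rest to 1.01 in Th0, 1.61 in Th1 and 0.638 in Th2. Of 12 tested genes of latent TGF-β and its signal, 1 was higher and 3 were lower at 24 h, against these same shares. Furin, the protease that cuts the TGF-β precursor, rose by 1.30 (limma adjusted p = 0.0337) and was lower in Th2 than in Th1 by more than 2-fold (log2 difference -1.10). Smad7 and Smad3, an inhibitor and a carrier of the signal, fell by 2.87 and 1.90 (limma adjusted p = 1.34e-08 and 9.23e-07). Of the other 3 Ikaros family genes, none reached 2-fold at 24 h against rest with limma, although Ikzf3 (log2 change -0.41) and Ikzf5 (-0.74) had an unadjusted p under 0.05 and Ikzf1 (-0.13) did not. The slope of Ikzf1 in Th2 was below that in Th0 (difference -0.04 per h, limma adjusted p = 0.0239). Other listed genes passed for this slope difference too, where 5.15% of all genes passed. Of 20 surface and effector genes 5 were lower and 0 higher, and of 26 regulators of Foxp3 5 were lower and 1 higher. Of 13 adenosine genes 3 were lower and 1 higher, and of 12 TGF-β genes 0 were lower and 1 higher.

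The genes whose course over the 20 libraries was most like that of Foxp3, by Pearson's r of log2(RPKM + 0.5) among 10897 genes, were Nlrc5 (0.918), Mov10 (0.907) and Ogfr (0.898). For Ikzf2 they were Rlf (0.962), Igkv4-71 (0.962) and Nr3c1 (0.962), and for Ikzf4 Zfp358 (0.932), Slc27a4 (0.897) and Slc39a1 (0.888). For Entpd1 they were Lbh (0.977), Rinl (0.977) and Tnfaip2 (0.977), and for Nt5e Sfn (0.970), Vps37b (0.958) and Arid4b (0.958). For Lrrc32 they were Sidt2 (0.963), Fosl2 (0.941) and Ramp3 (0.939). Gpr83 had the least close neighbours, Mien1 (0.855), Rgs1 (0.809) and Ahcyl2 (0.791). These are descriptions over libraries that share their denominators.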

How the data were processed

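RNA sequencing reads were turned by the authors into RPKM values per gene, deposited as 1 table of 24 libraries. The submitters' processing notes name BWA and GRCm38; the counter, its annotation and its strand setting are not given in the sources used here. No column of another series was present, and 1 entry without a name had a sum of 0. The authors' RPKM values of many genes were whole multiples (within 0.02) of the value of a single read. The mapped reads of each library were estimated from that value and the lengths of genes with a single transcript in a public annotation. Of 1344 such genes, 880 gave the same depth within 0.1%. Whether that annotation is the one the authors used is not known. For Ikzf2, Nt5e and Lrrc32 the value of a single read gave reads and exact Poisson 95% intervals, which cover counting error only. For the other 4 genes it did not, and no counting error is given.

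Changes were tested two-sided with limma 3.58.1 (R 4.3.3, intensity trend) on log2(RPKM + 0.5). Genes below a mean of 1 RPKM were left out, and Benjamini-Hochberg adjustment ran over all others. This scale understates the change of low genes. Time points were compared over the 20 libraries of the time course, with the 3 cultures of a time as its libraries, cultures over 18 libraries with time as a factor, slopes by an interaction of culture with hours, and actinomycin by a slope on hours. Calls needed an adjusted p under 0.05 and, except for slopes, a 2-fold change. The paper states that the cells were pooled from the spleens of several mice and that each culture and time was sequenced once. The p-values therefore measure only the spread between these libraries and not that between mice. In simulated data, 194 of 200 genes changed by up to 2 (log2) were called at 4 h, with 3 unchanged ones. Between Th2 and Th1, 200 were called with 0 unchanged ones. For the slope of Th2 against Th1 it was 174 with 12, and for actinomycin 128 with 2. The largest shift given, 2, exceeded the culture differences of the genes described here, which reached -0.65 (Nt5e, Th2 against Th0). Such counts cannot show the spread between mice, because the cells were pooled. They are therefore no check on the p-values given here. Python 3.11.15, numpy 2.4.6, pandas 2.3.3 and scipy 1.17.1 were used. The exact permutation of 4 times cannot go below p = 0.0417.

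The 7 genes and the lists were chosen with earlier results of these data known. From each list, the genes named are the 2 that rose most and the 2 that fell most past the threshold at 24 h against rest and for Th2 against Th1, with Il2ra and Ctla4, and for each of the 7 genes the 3 most alike by r. Tnfrsf4, Tbx21, Cd4, Ccdc22 and Ppp1r3f were added to these after their values were seen. Ikzf1, Ikzf3 and Ikzf5, the whole of the Ikaros list, are named although none passed that threshold. The slope differences given for listed genes, among them that of Ikzf1, also lie outside this rule. Alternatives were other pseudocounts, filters and scalings, no haemoglobin genes, no intensity trend, only the libraries compared, and leaving out each resting library, culture, time point or actinomycin library. Promoter windows were matched for 4 of the 7 genes.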

Additional observations from a re-analysis of the deposited data

Results flagged for a closer look

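The course of Foxp3 differed between cultures by the interaction of culture with hours over 18 libraries. Its log2 slope in Th2 minus that in Th0 was -0.0567 per h (limma adjusted p = 0.00365), and in Th2 minus that in Th1 it was -0.0765 per h (limma adjusted p = 0.000533). The Th2 library was below the Th0 library at 6 of 6 times and below the Th1 library at 5 of 6. Both differences use the same Th2 libraries, and each series was made once.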

How the results depend on the processing

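Of 957 values of single genes under the alternatives, 903 had the direction and the call given above, 27 lost a call, 9 gained one and 18 changed sign. The design has 1 library per culture and time, so a difference between 2 libraries has no replicate check. The preparation of the resting cells cannot be told apart from activation, and values are relative to all mapped reads, of which red cell transcripts took a changing share. Cultures were compared within time points, and no paired analysis was possible by replicate number because such numbers are given for the resting libraries alone.

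The share of rises among called genes depends on the scaling: at 4 h it was 24.7% as deposited and 43.5% under quantile normalization, at 24 h 42.3% and 54.0%, and for the slope of Th2 against Th1 25.6% and 37.7%. All genes together had a median log2 change at 24 h of -0.04, which quantile normalization moved to 0.13. Of the 7 genes, 1 was called at 12 h as deposited, and 3 with a pseudocount of 0.1, median-of-ratios or upper-quartile scaling. It was 4 with quantile normalization, 0 with a minimum mean of 5 RPKM, and 1 to 2 with a resting library or culture left out. The gene called at 12 h as deposited was Entpd1, which the minimum of 5 RPKM left out of the test. At 20 h 5 were called, 3 with quantile normalization and 3 to 5 with a library or culture left out. At 24 h 5 were called, and 3 to 5 with one left out, the lowest without resting replicate 1 or without Th1. For the slope of Th2 against Th0, 1 was called, 0 with only the 2 series compared, and 1 to 2 without a time point; against Th1, 1 was called, 2 with only the 2 series, and 1 to 3 without a time point. After actinomycin 2 were called, 0 without a filter, 1 with median-of-ratios scaling, 1 with quantile normalization and 0 to 4 without a library.

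Counts over all genes moved more. With a minimum mean of 5 RPKM, 646 and not 1152 genes were called at 4 h, and 1334 and not 2059 at 8 h. The slope of Th2 against Th0 had 553 calls, 258 without a filter, 76 with only the 2 series and 84 to 3035 without a time point (highest without 4 h, lowest without 20 h). That against Th1 had 117, then 68, 358 and 22 to 513 (highest without 8 h). Th1 against Th0 had 3, with 6 at a pseudocount of 0.1, 1 with median-of-ratios scaling, 8 with quantile normalization, 1 without the intensity trend and 0 to 45 without a time point. Actinomycin had 2213, with 698 without a filter and 536 to 3351 without a library. The filter settings change how many genes are tested: a minimum mean of 5 RPKM leaves fewer and no filter leaves more. The cause of the other shifts was not tested.

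Signs turned in small values. With 1 library or culture left out, Ikzf2 at 4 h lay between -0.00792 (without Th1) and 0.133, Foxp3 at 24 h against rest between -0.672 and 0.00108 (without Th2), and Gpr83 from 4 to 24 h between -0.110 (without Th1) and 0.879. Lrrc32 in Th2 against Th0 was 0.0288 with median-of-ratios, 0.0113 with upper-quartile and 0.0239 with quantile scaling, and between -0.0851 and 0.0243 without a time point. Nt5e in Th2 against Th1 lay between -0.187 and 0.0232 without a time point. Slope differences of Th2 against Th0 without a time point lay between -0.00417 and 0.00558 for Ikzf2, between -0.00387 and 0.00867 for Ikzf4 and between -0.0413 and 0.00312 for Nt5e. That of Ikzf2 against Th1 lay between -0.0150 and 0.0212, and the slope of Lrrc32 after actinomycin between -0.293 (without the 4 h library) and 0.119.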
